A study of Mus musculus with 24 samples.

Results

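Collagens and other matrix genes of the spleen's supporting cells were followed through 24 expression arrays of dendritic cells (DCs), taken from the spleens of BALB/c mouse pups. The group comprised 10 genes, namely Col1a1, Col1a2, Col3a1, Col4a1, Col4a2, Sparc, Bgn, Timp3, Igfbp7 and Cxcl12, chosen by their symbol from the 12393 genes that had a probe set with 1 gene symbol. They were measured by 23 of the 20380 probe sets with 1 symbol, and each gene is described below by its probe set of highest mean signal, with the differences of its other probe sets given beside the results in stimulated DCs of Set 2. The genes were proposed with results of these arrays in view, chiefly the comparison of stimulated DCs by maternal status, so that comparison is given for them as a description and without a test. All 10 genes were above the lower quartile of all probe sets in the mean of each group, and none had to be left out for a low value.

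The DCs were CD11c+ cells that magnetic beads retained from spleen at day 14 of life, and by the paper's methods over 95% of them carried CD11c together with MHC class II molecules. Pups called asthma-at-risk were born to mothers that had been sensitized and then made asthmatic with inhaled ovalbumin (OVA), and normal pups to control mothers. Naïve pups received no allergen, while stimulated pups were injected in the first days of life with OVA (5 µg) and the adjuvant alum (1 mg), on day 3 by the labels and day 4 by the methods. No group received alum or an injection alone, so OVA, alum and injection cannot be told apart, and allergen below stands for the whole treatment. In Set 1 there were 7 naïve arrays, 3 from normal and 4 from at-risk pups, and 8 stimulated arrays, 4 from either kind of pup. The RNA of Set 2 was NuGEN amplified, and in the paper's own analysis the arrays of Set 2 were preprocessed apart. Set 2 had 9 stimulated arrays, 4 from normal and 5 from at-risk pups, and no naïve array. Levels are therefore compared only within a set. By the paper's methods each group began with 4 arrays in Set 1 and 5 in Set 2. From each set 1 array was left out as an outlier. The groups short of an array here are naïve normal of Set 1 and stimulated normal of Set 2, so their spread is that of the arrays kept. The sources used here do not say how many pups stand behind an array, and p-values measure only the spread between arrays, which may be partly technical. The array numbers of a group lie together and do not mix with those of another group, so the order of the arrays and the group cannot be told apart.

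The extracellular matrix of spleen is laid down mainly by reticular fibroblasts, pericytes and endothelial cells rather than by DCs. Type I and type III collagens form fibrils, and type IV collagen is the network that basement membranes under endothelium are built on. Reticular cells also secrete chemokines that position leukocytes. Genes of conventional DCs were high on all arrays, with a mean log2 signal over 9 measured genes from 12.08 to 12.46. Markers of other cells were present too, and some were nearly as high. The mean was 11.13 to 12.03 over 9 macrophage genes and 11.07 to 12.31 over 7 neutrophil genes. It was 9.94 to 11.11 over 5 B cell genes and 9.13 to 10.77 over 7 T cell genes. The mean over 14 endothelial genes was between 6.87 and 8.22, and over 11 genes of reticular stroma and fibroblasts between 5.44 and 5.98. In stimulated at-risk DCs of Set 2, 5 of the 11 genes of reticular stroma and fibroblasts stood at or below the lower quartile of all probe sets on every array. These were Pdpn, Madcam1, Dpt, Dcn and Lum, whereas the others, Pdgfrb and Tcf21 among them, did not. In RNA of a whole preparation, fewer cells of a type and less RNA per cell cannot be told apart.

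One array stood apart for these genes. AF88, a stimulated at-risk array of Set 1, was the highest of its group for 10 of 10 genes, on average 1.30 on the log2 scale above the mean of the other 3 and by 0.49 to 1.36 above the next highest. It also carried the highest mean of the endothelial markers (8.22) and of the platelet markers (10.57) among the 15 arrays of Set 1. The within-group SD of the 10 genes accordingly had a median of 0.70 in that group, against 0.19 to 0.35 in the other 5 groups and 0.10 to 0.15 for all probe sets. AF80, a naïve at-risk array, and AF127, a stimulated at-risk array of Set 2, were the lowest of their groups for 10 of 10 genes. The genes thus ran high or low together on single arrays. Results that rest on AF88 are given with and without it.

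**Figure D1:**
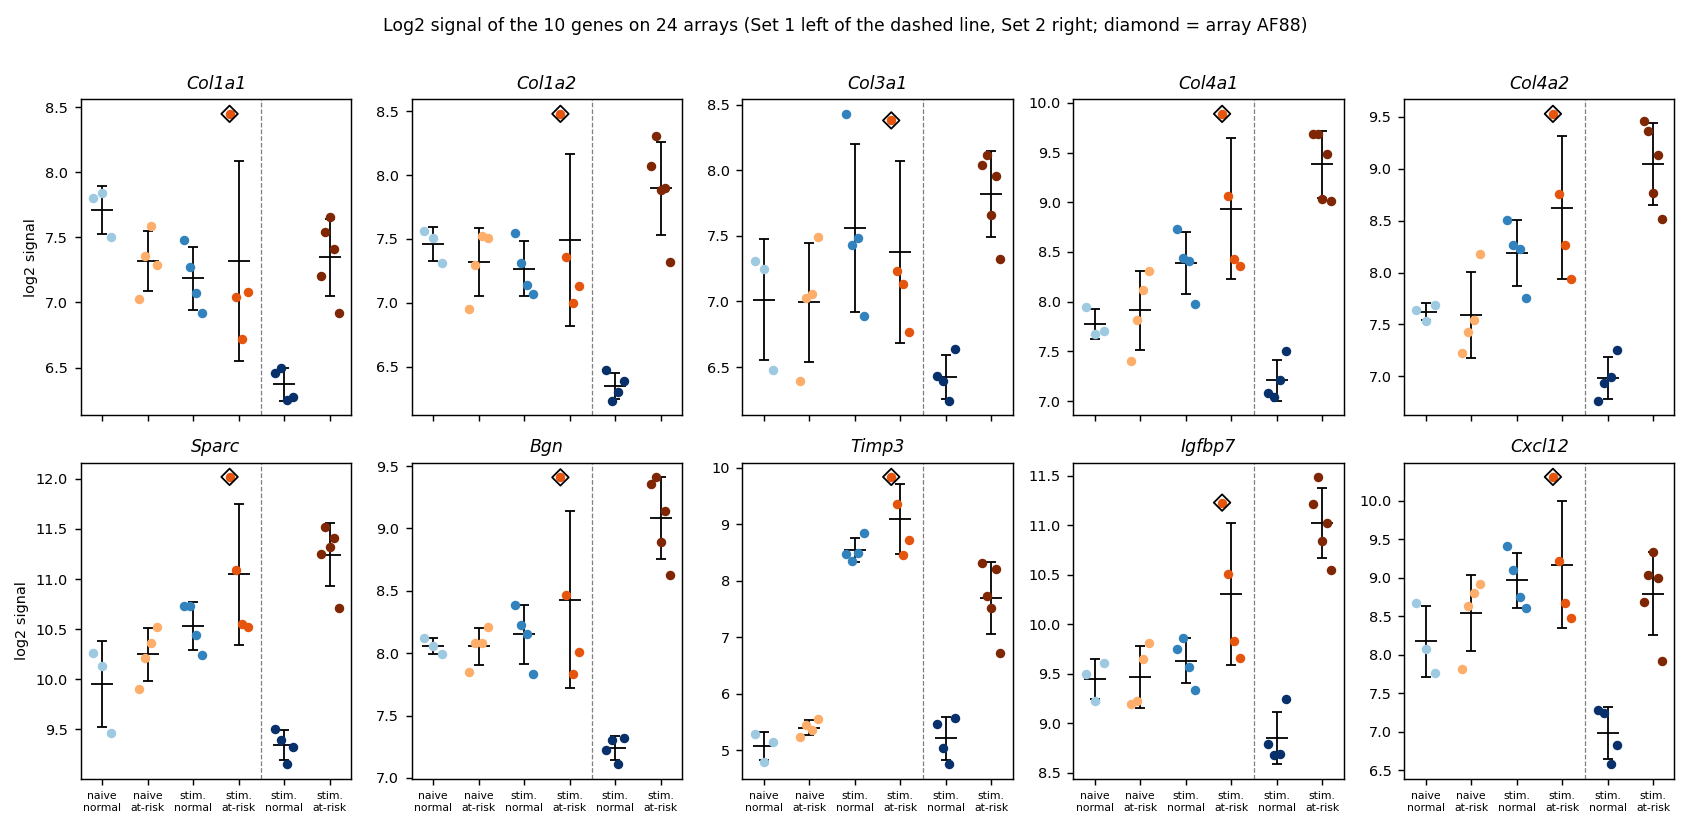
Log2 signal (y axis) of each of the 10 genes on every array, by group (x axis), with Set 1 left and Set 2 right of the dashed line. Points are arrays, the black bar is the mean with its SD, and the diamond marks AF88, the highest of its group in every panel, while in Set 2 the at-risk arrays lie above the normal arrays in every panel.

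To show what lies upstream of these genes, 150 bases before the annotated start were read for 4 of them from RefSeq (build GRCm38.p6), a fibrillar collagen pair, Timp3 and Igfbp7. Capitals mark a match on either strand to the TATA box (TATAAA), the CCAAT box (CCAAT) or the GC box (GGGCGG).
Col1a2, chr6:4505468-4505617, plus strand: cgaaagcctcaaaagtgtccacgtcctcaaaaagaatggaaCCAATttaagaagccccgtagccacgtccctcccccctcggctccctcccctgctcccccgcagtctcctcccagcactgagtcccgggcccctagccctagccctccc
Col3a1, chr1:45311388-45311537, plus strand: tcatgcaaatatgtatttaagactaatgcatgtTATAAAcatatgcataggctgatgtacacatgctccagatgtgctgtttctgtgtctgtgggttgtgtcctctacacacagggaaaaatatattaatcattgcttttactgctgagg
Timp3, chr10:86300262-86300411, plus strand: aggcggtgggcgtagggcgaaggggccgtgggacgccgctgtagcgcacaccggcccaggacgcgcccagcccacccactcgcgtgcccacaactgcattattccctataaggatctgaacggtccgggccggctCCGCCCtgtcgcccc
Igfbp7, chr5:77408046-77408195, minus strand: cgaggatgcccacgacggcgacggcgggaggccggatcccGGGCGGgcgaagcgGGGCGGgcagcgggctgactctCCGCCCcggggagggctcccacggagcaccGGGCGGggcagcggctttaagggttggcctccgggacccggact

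These stretches have little in common in their letters. Col3a1 was A- and T-rich with 37.3% G and C, whereas Igfbp7 had 78.0% and 4 GC boxes, and the median of all promoters was 54.0%. Of the 9 genes whose promoter is in the table, the TATA box was found in 1 (Col3a1), the CCAAT box in 3 (Col1a2, Col4a1 and Col4a2) and the GC box in 5 (Col4a2, Bgn, Timp3, Igfbp7 and Cxcl12). The same searches found them in 7.57%, 24.5% and 28.6% of 32851 promoters. No motif searched was shared by all 9 genes. Col4a1 and Col4a2 lie head to head on chromosome 8, and the annotated starts used here are 11312826 on the minus and 11312805 on the plus strand.

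The naïve comparison, which asks whether maternal asthma alone changes the DCs of unexposed pups, showed no called difference in the matrix genes. In naïve at-risk against naïve normal DCs, 0 of 10 genes and 0 of 23 probe sets passed an adjusted p of 0.05 and the fold threshold stated with the methods (limma, called below), when 0.34% of all 22626 probe sets did, and 1 of the 23 had an unadjusted p under 0.05. The log2 differences lay between -0.40 for Col1a1, a chain of the main fibrillar collagen (SE 0.30), and 0.37 for Cxcl12, a chemokine that retains leukocytes through Cxcr4 (SE 0.38), with a median of 0.01. The smallest adjusted p among the 10 genes was 0.536. Bgn, a small leucine-rich proteoglycan that binds collagen, had a mean log2 signal of 8.06 ± 0.06 (SD, n = 3) in normal and 8.06 ± 0.15 (SD, n = 4) in at-risk DCs. Standard errors were 0.25 to 0.39, so differences of that size, and larger ones that fell short of the adjusted p, were not detectable in this fit. The fit shares its spread over all groups of Set 1, so AF88 adds to these errors although it is not a naïve array. The median SD of the 10 genes was 0.19 in naïve normal and 0.29 in naïve at-risk DCs, against 0.7 in the group of AF88. Without AF88 the count of called genes was again 0, and the naïve standard errors of that fit are not given here.

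Allergen stimulation, which could be compared with naïve DCs only in Set 1, separated Timp3 from the rest of the group. Timp3 encodes a matrix-bound inhibitor of metalloproteinases. Its log2 signal was 5.28, 4.79 and 5.15 on the naïve normal arrays and 5.24, 5.44, 5.36 and 5.55 on the naïve at-risk arrays, near the lower quartile of all probe sets (5.00 to 5.09). On the stimulated normal arrays it was 8.48, 8.35, 8.49 and 8.84, and on the stimulated at-risk arrays 9.84, 9.36, 8.46 and 8.73. No stimulated array overlapped a naïve one. Timp3 rose 11-fold in normal pups (log2 difference 3.46, SE 0.25, adjusted p = 5.83e-07 from limma) and 13-fold in at-risk pups (3.70, SE 0.23, adjusted p = 9.97e-08). Its other 3 probe sets rose as well, by 0.79 to 3.17 in normal and by 1.19 to 3.48 in at-risk pups, the smallest rise being that of its dimmest probe set.

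Platelet markers moved in the same arrays as Timp3. Their mean log2 signal over 10 measured genes was 5.93 to 6.23 on the naïve arrays and 9.49 to 10.57 on the stimulated arrays of Set 1, and 10 of 10 rose in either kind of pup. Erythroid markers rose too, from 8.27 to 8.56 on naïve arrays to 9.59 to 10.53 on stimulated arrays of Set 1, with 9 of 9 genes called in either kind of pup. The part of these cells in the rise of Timp3 was not tested.

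In normal pups, 1 of 10 genes (Timp3, which rose) and 5 of 23 probe sets were called after stimulation, when 11.5% of all probe sets were, 5.73% with a rise. The other called probe set was the dimmest of Igfbp7, which encodes a secreted protein of vessel walls (0.77, SE 0.14, adjusted p = 0.00179), whereas the brightest probe set of Igfbp7 differed by 0.19 (SE 0.29, adjusted p = 0.723) and another by -0.02. The median of the 10 genes was 0.55, against 0.00 for all probe sets. The arrays of Col4a1, Col4a2 and Timp3 were higher than all naïve normal arrays, and those of Col1a1 lower, when 11.6% and 10.3% of all probe sets separated the groups in these directions. Col1a1, at -0.53 (SE 0.30, adjusted p = 0.269), did not pass the test, but passed it when AF88, which is not in these groups but adds to the shared spread, was left out (adjusted p = 0.032, with 2 of 10 genes called).

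In at-risk pups, 3 of 10 genes and 8 of 23 probe sets were called after stimulation, all with a rise, when 7.88% of all probe sets were called and 4.42% with a rise. Besides Timp3, the called genes were the chains of basement membrane collagen. The remaining called probe set was the dimmest of Igfbp7 (0.48, SE 0.13, adjusted p = 0.0283 from limma), whose brightest probe set was not called. Col4a1 stood at 7.40, 7.82, 8.12 and 8.31 on the naïve and at 9.89, 9.06, 8.43 and 8.36 on the stimulated arrays. The 2 groups did not overlap, although the lowest stimulated array lay only just above the highest naïve one. Col4a1 rose by 1.02 (log2 difference, SE 0.28, adjusted p = 0.0329 from limma) and its second probe set by 1.00 (adjusted p = 0.028). Col4a2, whose chain joins those of Col4a1 in the collagen molecule, stood at 7.22, 7.43, 7.54 and 8.18 on the naïve and at 9.53, 8.76, 8.27 and 7.94 on the stimulated arrays, which overlapped. It rose by 1.03 (SE 0.28, adjusted p = 0.03).

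Neither call of the type IV chains withstood the loss of single arrays. Without AF88 the difference was 0.71 for Col4a1 (adjusted p = 0.0773) and 0.73 for Col4a2 (adjusted p = 0.0769). Both calls were also lost without AF80 (adjusted p = 0.11 for Col4a1 and 0.0977 for Col4a2), AF81 (0.0807 and 0.082), AF82 (0.0508 and 0.0717) or AF89 (0.0873 and 0.0824), with differences of 0.85 to 1.09. In each of these fits the count of called genes fell to 1, whereas it was 4 without AF90 or AF91, where Igfbp7 passed (adjusted p = 0.0401 and 0.0212). With all arrays, Igfbp7 differed by 0.84 (SE 0.27, adjusted p = 0.0683) and Sparc, a collagen-binding glycoprotein, by 0.80 (SE 0.28, adjusted p = 0.0986). The smallest values were those of Bgn (0.37) and of the fibrillar chains, with 0.00 for Col1a1, 0.17 for Col1a2 and 0.38 for Col3a1. Endothelial markers moved in these arrays too. Of 14 endothelial genes 7 rose and 1 fell in at-risk pups, among them Cldn5, a tight junction protein (1.79, SE 0.30, adjusted p = 0.00101), and Tek, the angiopoietin receptor (1.98, SE 0.36, adjusted p = 0.002), and their part in the collagen values was not tested.

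Whether allergen acted differently by maternal status was tested in Set 1 as the difference between the maternal effects in stimulated and in naïve DCs. Of the 10 genes 0 were called, as were 0 of 23 probe sets, when 0.0486% of all probe sets were. The values ran from -0.17 for Cxcl12 (SE 0.52) to 0.65 for Igfbp7 (SE 0.40), with adjusted p of 0.684 to 0.94 from limma, and 1 of the 23 probe sets had an unadjusted p under 0.05. The allergen comparisons and this one share their stimulated arrays with the comparison of stimulated DCs below, on which the genes were chosen.

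**Figure D2:**
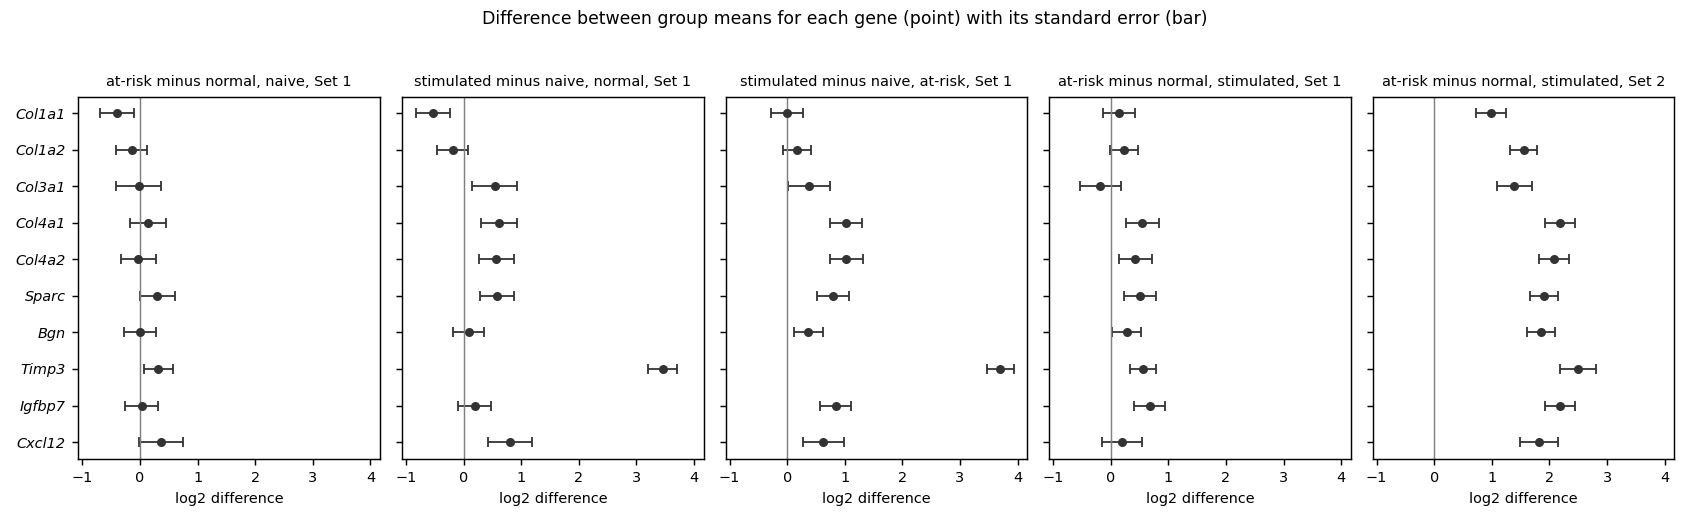
Difference between group means on the log2 scale (x axis) for the 10 genes (y axis) in 5 comparisons, with bars of 1 SE. Timp3 departs from 0 by more than 3 after allergen in either kind of pup, the naïve values lie around 0, and in stimulated DCs the maternal differences of Set 2 lie between 0.98 and 2.49 while those of Set 1 lie between -0.18 and 0.68.

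Among stimulated DCs the comparison of at-risk with normal pups is a description, since the genes were chosen on it, and its values came mainly from Set 2. Over 17 arrays with a term for set, the log2 differences of the 10 genes lay between 0.58 for Col1a1 and 1.58 for Timp3, 7 of 10 genes and 15 of 23 probe sets met the criteria for a call, and 1.73% of all probe sets did, 1.31% as higher. Nothing is read from that count. It was 3 without AF119 and 4 without AF118 or AF120, all 3 of them stimulated normal arrays of Set 2. Col1a2 lay just inside the criteria at 0.92 (SE 0.23), and Cxcl12, at 1.05 (SE 0.30), just outside. By the second probe set of each gene it was the other way, with Cxcl12 inside at 1.29 (SE 0.30) and Col1a2 outside at 1.05 (SE 0.27).

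The fibrillar collagens, which give tissue its tensile strength, separated in Set 2. Col1a1 had a log2 signal of 6.46, 6.5, 6.25 and 6.27 on the stimulated normal arrays of Set 2 and of 7.20, 7.54, 7.66, 7.41 and 6.92 on the at-risk arrays. Col1a2, the other chain of type I collagen, stood at 6.47, 6.23, 6.30 and 6.39 on the normal and at 8.07, 8.31, 7.88, 7.90 and 7.32 on the at-risk arrays. All at-risk arrays of Set 2 were higher for each of these genes, with AF127 the lowest of them. Col3a1, which makes the reticular fibres of spleen, stood at 6.43, 6.39, 6.24 and 6.64 on the normal and at 8.04, 8.12, 7.66, 7.96 and 7.32 on the at-risk arrays. The differences were 0.98 (SE 0.26), 1.55 (SE 0.24) and 1.39 (SE 0.30), or 1.97-, 2.93- and 2.63-fold. The second probe set of each gene differed by 0.75 for Col1a1, 1.68 for Col1a2 and 0.61 for Col3a1.

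In Set 1 the fibrillar collagens showed no such separation. Col1a2 stood at 7.55, 7.31, 7.14 and 7.07 on the stimulated normal arrays and at 8.48, 7.36, 7.00 and 7.13 on the at-risk arrays, where AF88 alone lay above the normal range. The differences in Set 1 were 0.14 (SE 0.28) for Col1a1, 0.23 (SE 0.25) for Col1a2 and -0.18 (SE 0.36) for Col3a1. Without AF88 they were -0.24, -0.10 and -0.51.

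The basement membrane collagens differed more. In Set 2 Col4a1 stood at 7.08, 7.04, 7.21 and 7.5 on the normal and at 9.69, 9.69, 9.03, 9.49 and 9.01 on the at-risk arrays. Col4a2 stood at 6.76, 6.93, 6.99 and 7.25 on the normal and at 9.46, 9.36, 8.77, 9.13 and 8.52 on the at-risk arrays. The gap between the groups was wider than the range of either group for each gene. The differences were 2.18 (SE 0.26) for Col4a1, or 4.52-fold, and 2.07 (SE 0.26) for Col4a2, or 4.19-fold. The second probe set of Col4a1 differed by 2.13, and Col4a2 had 1 probe set. In Set 1 they were 0.55 (SE 0.28) and 0.43 (SE 0.28), and without AF88 0.23 (SE 0.22) and 0.13 (SE 0.23).

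Sparc and Bgn, which bind collagen fibrils, followed the collagens. Sparc stood at 9.50, 9.39, 9.15 and 9.32 on the normal and at 11.25, 11.52, 11.32, 11.41 and 10.71 on the at-risk arrays of Set 2, a difference of 1.90 (SE 0.24). Bgn stood at 7.22, 7.30, 7.11 and 7.32 on the normal and at 9.36, 9.41, 8.89, 9.14 and 8.63 on the at-risk arrays, a difference of 1.85 (SE 0.24). Neither gene had an overlap between the groups of Set 2. Other probe sets differed by 2.15 for Sparc and by 1.98 and 2.29 for Bgn. In Set 1 the groups overlapped for both genes, with differences of 0.51 (SE 0.28) for Sparc and 0.28 (SE 0.25) for Bgn, and of 0.19 and -0.05 without AF88.

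By the brightest probe set of each gene, Timp3 had the largest difference of the 10 in Set 2. It stood at 5.47, 5.04, 4.75 and 5.57 on the normal and at 8.31, 7.73, 7.52, 8.21 and 6.72 on the at-risk arrays, a difference of 2.49 (SE 0.31), or 5.62-fold. The normal arrays were near the lower quartile of all probe sets, with 4.75 below it, and background was not measured, so the fold has no measured floor. The other 3 probe sets of Timp3 differed by 1.89, 0.91 and -0.18. The last of these, its dimmest, stood at 4.44 to 4.63 on the normal and 4.12 to 4.55 on the at-risk arrays, and its difference was the only one below 0 among the 23 probe sets in Set 2. Platelet markers again moved with Timp3, at 6.57 to 6.79 on the normal and 8.06 to 9.51 on the at-risk arrays of Set 2, with 10 of 10 genes higher, and their part in the difference was not tested. In Set 1, where Timp3 and platelet markers were high on stimulated arrays of either kind, the difference of Timp3 was 0.56 (SE 0.23), and 0.31 (SE 0.18) without AF88.

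The secreted factors Igfbp7 and Cxcl12 completed the pattern. Igfbp7 stood at 8.79, 8.68, 8.69 and 9.24 on the normal and at 11.22, 11.49, 10.84, 11.02 and 10.55 on the at-risk arrays of Set 2, a difference of 2.18 (SE 0.26). Cxcl12 stood at 7.28, 7.24, 6.58 and 6.83 on the normal and at 8.69, 9.04, 9.33, 9.0 and 7.92 on the at-risk arrays, a difference of 1.81 (SE 0.33). Both other probe sets of Igfbp7 differed by less than its brightest, the smaller by 0.89, and that of Cxcl12 differed by 2.20. Arrays of the groups did not overlap for either gene. In Set 1 the differences were 0.68 (SE 0.27) for Igfbp7 and 0.20 (SE 0.35) for Cxcl12, and without AF88 0.37 (SE 0.20) and -0.18 (SE 0.28).

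Counted by set, all at-risk arrays exceeded all normal arrays for 10 of 10 genes in Set 2, when 5.67% of all probe sets separated the groups in that direction, and for 0 of 10 in Set 1, when 2.76% did. By the criteria for a call, 10 of 10 genes met them in Set 2, when 8.17% of all probe sets did and 4.74% as higher, and 0 of 10 in Set 1, when 0.0707% did. As a difference between sets, by the brightest probe set of each gene, the maternal effect was larger in Set 2 by 0.84 (Col1a1) to 1.93 (Timp3). Standard errors were 0.35 to 0.48. Of the 10 genes 4 met the criteria, namely Col4a1, Col4a2, Bgn and Timp3, when 1.79% of all probe sets did and 0.659% in that direction. No other probe set of Timp3 met the criteria, and its dimmer ones gave smaller values, down to 0.24 and -0.52. The second probe set of Col1a1 gave 0.47, whereas that of Cxcl12 met the criteria at 1.93. The count of 4 depended on single arrays. It was 10 without AF88 and 7 without AF127, 1 without AF123, and 0 without any one of AF84, AF85, AF86, AF89, AF90, AF91, AF118, AF119, AF120, AF124 and AF126. The genes were chosen with this comparison and its split by set known, so nothing is read from any of these counts. Amplification, any separate preprocessing and set cannot be told apart.

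**Figure D3:**
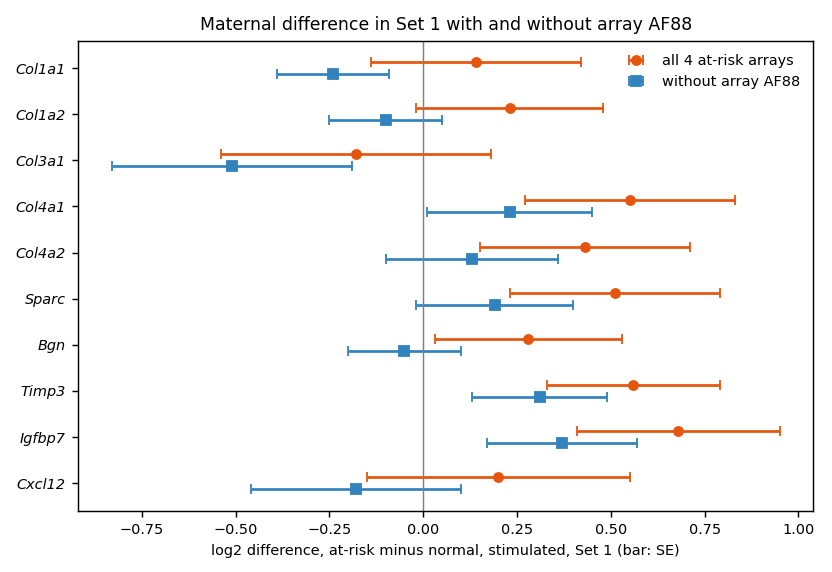
Maternal difference on the log2 scale in stimulated DCs of Set 1 (x axis, bars of 1 SE) for the 10 genes (y axis), with all 4 at-risk arrays (circles) and without AF88 (squares). Every value is lower without AF88, and Col1a1, Col1a2, Bgn and Cxcl12 pass from above to below 0.

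Other matrix genes, listed apart from the 10, were described in the same comparison. Their lists were also chosen with earlier results of these data known, so no p is given and nothing is read from their counts. In Set 2 the median log2 difference over 15 other collagens was 0.14, over 11 basement membrane genes 0.42, over 19 proteoglycans and matrix glycoproteins 0.12, and over all probe sets 0.00. Of the other collagens 5 were higher in at-risk DCs and 10 did not pass. Among the 5 were Col5a1 (1.17, SE 0.27) and Col5a2 (0.97, SE 0.15), whose chains form the type V collagen inside type I fibrils. Of the basement membrane genes 4 were higher, among them Hspg2, which encodes perlecan (0.62, SE 0.11), and Lamb2, a laminin chain (0.72, SE 0.13). Pcolce, which enhances the trimming of fibrillar procollagen, was higher by 1.45 (SE 0.23), and 1 of the 14 measured genes of collagen folding, processing and cross-linking was higher and 1 lower. Elastic fibre gene Fbln5 was higher (1.15, SE 0.26) and Postn, which encodes periostin, lower (-0.71, SE 0.11), with 17 of 19 proteoglycans and glycoproteins not passing. Matrix proteases and inhibitors went either way, with 3 of 9 higher, Mmp2 at 0.75 among them, and 1 lower, Mmp9 at -0.67. In the insulin-like growth factor axis Igfbp3 (1.06) and Igfbp4 (0.92) were higher and Igf1 (-0.43) and Igfbp6 (-0.61) lower, of 8 genes. Among receptors for collagen and Cxcl12, Lair1 (-0.72) and Cxcr4 (-0.46) were lower and 5 of 7 did not pass.

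After allergen in Set 1 the lists differed in their share of called genes. Of all probe sets 11.5% were called in normal and 7.88% in at-risk pups. Of 9 matrix proteases and inhibitors 3 fell in normal pups, and 1 rose and 1 fell in at-risk pups. Of 19 proteoglycans and matrix glycoproteins 1 rose and 3 fell in normal pups, and 2 rose and 1 fell in at-risk pups. In normal pups 1 of 15 other collagens rose, Col5a1 by 0.88 (SE 0.23, adjusted p = 0.0178), and 1 fell, Col14a1, which decreased by 0.69 (SE 0.19, adjusted p = 0.0282). In at-risk pups 2 rose, Col5a1 by 1.04 (SE 0.21, adjusted p = 0.00473) and Col4a5 by 0.44 (SE 0.08, adjusted p = 0.00235), and 0 fell. The mean of Col4a5 was under the lower quartile of all probe sets in every group. None of the 11 basement membrane genes outside the 10 was called in either kind of pup (0 of 11). Thbs1, the adhesive glycoprotein thrombospondin 1, rose by 0.72 in normal and by 1.83 in at-risk pups, and Postn fell by 0.86 and by 0.70. In the list of reticular stroma and fibroblasts 6 of 11 genes fell and 1 rose in normal pups, and 3 fell in at-risk pups, with Cxcl13, a B cell chemokine of follicular stroma, at -2.58 (SE 0.23, adjusted p = 3.76e-06) and -1.18 (SE 0.21, adjusted p = 0.00181). In the naïve comparison 0 genes of any of these lists were called.

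From array to array inside the groups, the 10 genes ran together. After the mean of each of the 6 groups was removed, the 45 pairs of genes had a Pearson r over 24 arrays of 0.48 to 0.95 with a median of 0.82, and without AF88 of 0.22 to 0.93 with a median of 0.71. The highest r was that of Col4a1 and Col4a2 (0.95, and 0.93 without AF88) and the lowest that of Col1a1 and Timp3 (0.48 and 0.22). Against the mean of the other 9 genes, Col1a2 had 0.96 (0.92 without AF88) and Timp3 0.67 (0.55). Points of these correlations share arrays and their normalization, and they describe these arrays with no test.

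**Figure D4:**
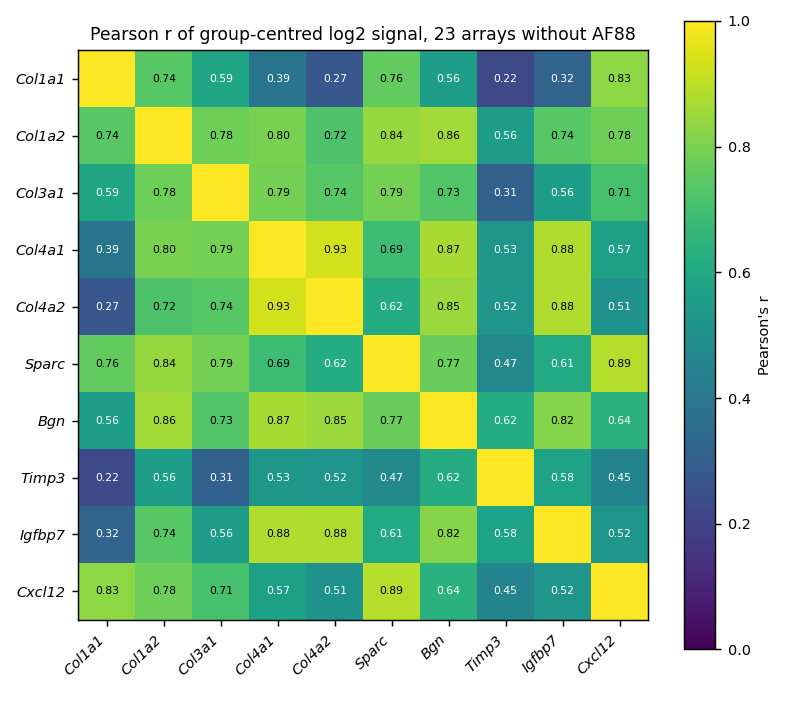
Pearson r of log2 signal between each pair of the 10 genes over the 23 arrays other than AF88, after removal of group means, with colour from 0 to 1. Col4a1 and Col4a2 share the highest value (0.93), and the rows of Col1a1 and Timp3 hold the lowest.

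The marker lists divided the 10 genes. With the mean of 14 endothelial genes, r inside groups was 0.95 for Sparc (0.93 without AF88), 0.89 for Col3a1 (0.84) and 0.88 for Cxcl12 (0.82), and 0.62 for Timp3 (0.49). With the mean of 10 platelet genes, r was 0.87 for Timp3 (0.84 without AF88) and 0.37 to 0.63 for the other 9 genes (0.04 to 0.52). Timp3 thus ran closest to platelet markers and the remaining genes closer to endothelial ones. With the 11 genes of reticular stroma and fibroblasts r was 0.51 to 0.72 (0.39 to 0.65 without AF88). The mean of that list was 5.48 to 5.69 on the normal and 5.54 to 5.81 on the at-risk arrays of Set 2. In either group 5 of the 11 genes were at or under the lower quartile. Of the 11 genes 2 were higher in at-risk DCs, Pdgfrb (0.54, SE 0.10) and Tcf21 (1.45, SE 0.29), and 9 did not pass. The median difference of the 11 was 0.07, with 6 of them above 0. Tcf21 was at or under the lower quartile on every normal array of Set 2. The endothelial mean was 7.01 to 7.20 on the normal and 7.57 to 7.93 on the at-risk arrays. Of 14 endothelial genes 7 were higher and 0 lower in at-risk DCs of Set 2, with Cldn5 at 1.89 (SE 0.25), Tek at 1.93 (SE 0.31) and Plvap, a component of fenestral diaphragms, at 1.40 (SE 0.25).

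**Figure D5:**
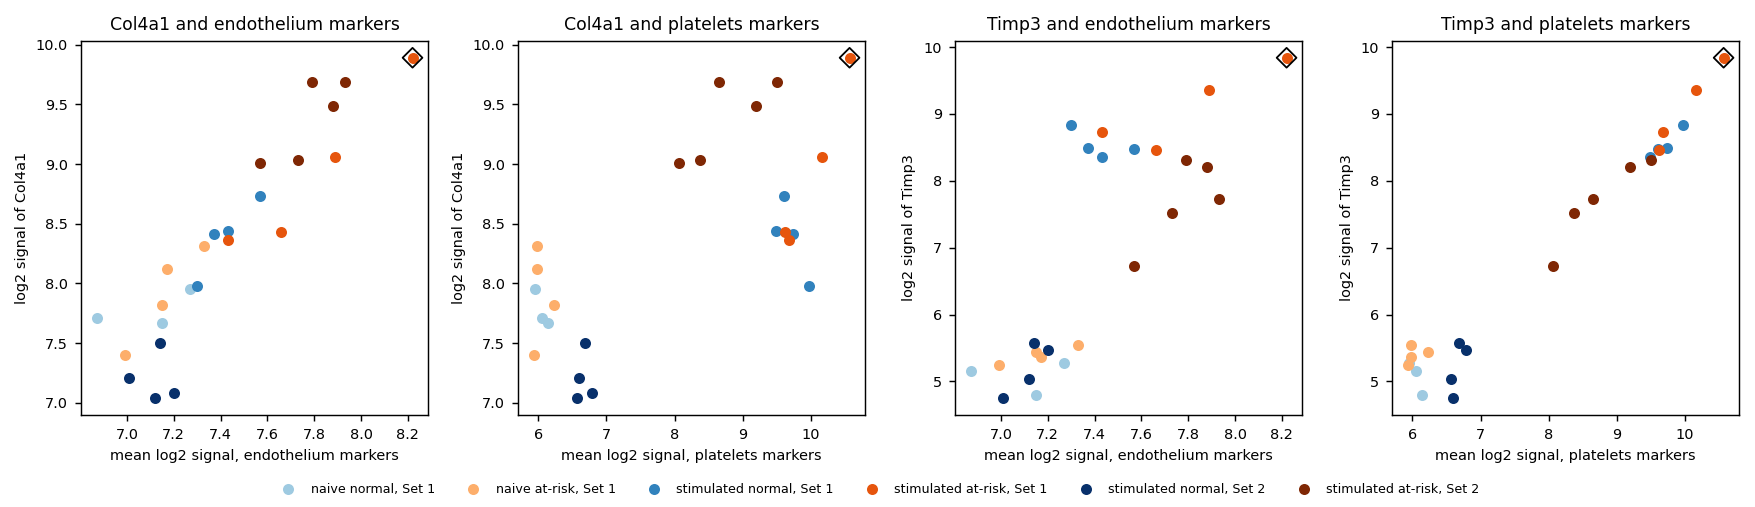
Log2 signal of Col4a1 (left pair) and Timp3 (right pair) on each of 24 arrays against the mean log2 signal of endothelial or platelet markers, coloured by group, with AF88 in a diamond. Timp3 and platelet markers are both low on naïve arrays and on normal arrays of Set 2 and both high on the other arrays, and the sets differ in scale.

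Among 12383 further genes, the 10 whose group-centred signal was most like the mean of the matrix genes were Tcf21, Coch, Plvap, Cldn5, Fstl1, Shank3, Lrrn1, Tlx1, Gdpd2 and Smoc2, with r of 0.90 to 0.92 over 24 arrays. Without AF88 their r was 0.80 to 0.91, highest for Plvap. Plvap and Cldn5 are endothelial genes, and Tcf21 and Tlx1 are transcription factors of spleen mesenchyme. Of this group of 10 genes, 6 were also among the top 10 without AF88.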

How the data were processed

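Expression on 24 arrays was analysed, split into 6 groups by the set of the array, maternal status and allergen. The authors deposited 1 table of RMA values for Affymetrix probe sets, each a linear intensity, with no version of RMA given in the sources used here. Log2 was taken of every deposited intensity, with no pseudocount. After removal of 64 control probe sets, 22626 were tested. Median log2 signals were 8.09 to 8.22. The number of arrays limits the precision.

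Symbols came from the platform annotation, and positions and promoters from RefSeq. The tests used limma 3.58.1 (R 4.3.3). Other values came from pandas 2.3.3 and numpy 2.4.6 under Python 3.11.15, and figures from matplotlib 3.10.9. The naïve, allergen and interaction tests used the 15 arrays of Set 1, and the stimulated comparison 17 arrays with set as a term. The maternal difference of Set 1 came from the same 15 arrays. That of Set 2 and the difference between sets came from the 17 stimulated arrays with 1 mean per group. Calls needed a fold of at least 1.25 and, after Benjamini-Hochberg adjustment over all probe sets, p of 0.05 or less. The scripts were tested on simulated data.

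The 10 genes and all lists were chosen with earlier results of these data known. Named were all 10 genes, called genes of each list (at most 4 per comparison) and the 10 genes of highest likeness. The alternatives were other arrays in the fit, each set alone, quantile normalization, median centring, a filter below the 40th percentile, no fold threshold, trended variance, array weights, other probe sets, uncentred or rank-based likeness, and each array left out. Likeness and the Set 1 difference without AF88 were added after seeing the data.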

Additional observations from a re-analysis of the deposited data

Results flagged for a closer look

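By the interaction of set and maternal status, the difference of the maternal effect on stimulated DCs between the sets met the criteria for a call for 4 of the 10 genes. At-risk minus normal was larger in Set 2 than in Set 1 by 1.63 on the log2 scale for Col4a1, 1.63 for Col4a2, 1.57 for Bgn and 1.93 for Timp3. Each value is that of the brightest probe set, and no other probe set of Timp3 met the criteria. The genes were chosen with this comparison and its split by set known, so the values are a description and are given without a p. The count of 4 was 10 without AF88, 1 without AF123 and 0 without any one of AF84, AF85, AF86, AF89, AF90, AF91, AF118, AF119, AF120, AF124 and AF126. Dixon's criterion, applied gene by gene in the groups of 4 or 5 arrays (50 tests of 10 genes in 5 groups), was passed by no array, AF88 included, although AF88 was the highest of its group for 10 of 10 genes.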

How the results depend on the processing

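The naïve count of called genes (0 of 10) and that of the interaction in Set 1 (0 of 10) were the same under all alternatives run, including each array left out (0 to 0). After allergen the count in normal pups was 1, and 1 to 2 with each array left out, and in at-risk pups it was 3, and 1 to 4 with each array left out, 1 with only the compared groups in the fit and 5 with array weights. In stimulated DCs the count was 7, and 3 to 8 with each array left out, 4 with no term for set and 0 in Set 1 alone. For the difference between sets it was 4, and 0 to 10 with each array left out, 7 with all 24 arrays and 8 with array weights. The likeness ranking shared 4 of its 10 genes with that of values not centred, 5 with that by Spearman and 6 with that over 23 arrays, AF88 left out. The causes were not tested.

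Reversed signs were all of values that had not been called, except that of Timp3 between sets. For Col1a1 after allergen in at-risk pups (0.00) the value was -0.02 with quantile normalization, -0.02 with median centring, -0.08 with array weights and -0.37 to 0.21 with each array left out, and for Col1a2 -0.16 to 0.34. In the interaction Col3a1 (-0.16) was 0.18 with array weights and -0.49 to 0.13 with each array left out, Cxcl12 -0.55 to 0.06, Sparc -0.11 to 0.46, Bgn -0.05 to 0.48 and Timp3 -0.01 to 0.45. In the naïve comparison the ranges were -0.29 to 0.18 for Col3a1, -0.22 to 0.09 for Col4a2, -0.05 to 0.07 for Bgn and -0.09 to 0.12 for Igfbp7. Other probe sets of a gene reversed the sign at 0.11 and 0.07 for Bgn and -0.06 for Timp3 in the naïve comparison, -0.02 for Igfbp7 after allergen in normal pups, -0.29 for Igfbp7 and 0.02 for Cxcl12 in the interaction, and -0.52 for Timp3 between sets (its dimmest probe set).

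No paired analysis was possible because array numbers are not shared between groups. Background signal was not given, so the level of Timp3 in naïve DCs and on the normal arrays of Set 2, near the lower quartile, has no measured floor.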
